A study of Mus musculus with 32 samples.

Results

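Mouse retinal organoids that carry a METTL3 fusion protein in a Mettl3 knockout line, cultured without dexamethasone (Dex), were compared with organoids of the knockout line itself at days 2 and 4 of differentiation. The comparison rests on 8 of the 32 libraries of the series, 2 for each line at each day, and takes in all genes tested. METTL3 is the catalytic subunit of the nuclear enzyme that writes N6-methyladenosine (m6A) on messenger RNA, together with METTL14 and accessory subunits such as WTAP. Methylated transcripts are read by YTH-domain proteins, and the mark often shortens the life of the transcript. It lies mostly around stop codons and within long internal exons.

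The 4 groups were as follows. The KO groups are organoids of the line labelled Mettl3 KO, which the labels set beside the parental line Rx:GFP, a mouse embryonic stem cell line with a green fluorescent protein reporter for Rax (also called Rx), the homeobox gene that marks the eye field. The no Dex groups are the same knockout with overexpression of a wild-type METTL3-GRBD fusion, which the series describes as cytosolic without Dex and as nuclear with it. All 8 libraries are of organoids that received AGN at 0.1 µM in GMEM medium with KSR, and none received Dex, so AGN, medium and the Mettl3 knockout are shared by both arms. The labels give neither the promoter of the fusion nor whether a line is 1 clone, and the fusion and other differences between the lines cannot be told apart. The duplicates went through separate library preparations and sequencing rounds, and nothing says that they came from separate cultures, so the p-values measure the spread between these libraries, which may be technical.

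Polyadenylated RNA was sequenced as read pairs, and the deposited values are FPKM, in which a gene's fragments are divided by its length and by the library's depth, so that levels of different genes can be compared per length. Depth was estimated from the step between low FPKM values at 33.4 to 54.5 M fragments in the 8 libraries (median 38.2), against 28.2 to 54.5 in all 32. In these 8 libraries 3 fragments on a 2 kb transcript correspond to 0.0322 to 0.0524 FPKM, a limit for counting error only. Duplicates correlated at r = 0.9938 to 0.9945 across genes, which are not independent replicates. Their squared differences averaged 3.46 to 10.9 times the counting noise in well-covered genes with 1 annotated transcript. Taken by the median gene instead of the mean, the factor was 1.37 to 2.82. In bulk RNA, fewer cells of a type and less RNA per cell cannot be told apart, which applies to every marker below.

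Differences are given as log2(FPKM + 1) of no Dex minus KO, with the standard error (SE) of 1 limma model over all 32 libraries, and they understate the change of genes with low levels. A gene is said to have risen or fallen where its Benjamini-Hochberg adjusted p, two-sided and over 16276 genes, was below 0.05. The contrasts of the days share no library. The interaction term of the model tested whether the difference of day 4 departed from that of day 2. Genes of day 2 alone or day 4 alone passed at that day, did not pass at the other, and passed the test of the difference between the days.

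The Mettl3 transcript itself (chr14:52294841-52305128, GRCm38) stood at 38.9 and 40.8 FPKM in the KO libraries and at 54 and 56.3 without Dex at day 2. At day 4 the values were 34.9 and 38.4 in KO and 50.5 and 53.2 without Dex. The no Dex libraries lay above both KO libraries at each day, by 0.46 ± 0.06 (SE), adjusted p = 1.04e-05 at day 2 and by 0.49 ± 0.06 (SE), adjusted p = 9.28e-06 at day 4. The parental line had a mean of 40.7 FPKM at day 2 and 33.5 at day 4, so the gene-level value does not set the KO libraries below it. A value for the whole gene does not show a deleted exon or a lost protein, and the knockout is known here from the labels alone. Mettl3 overlaps Tox4 in the annotation, and the files do not tell reads of the fusion from those of the endogenous gene.

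Most differences were small and many were particular to a day by the test between days. At day 2, 14.8% of the tested genes rose and 22.2% fell, and at day 4 9.66% rose and 17% fell. The median absolute change of the genes that passed was 0.28 at day 2 and 0.25 at day 4. After a rescaling of the libraries by the median of ratios, the share of rises among the genes that passed went from 40% to 44.4% at day 2 and from 36.3% to 45.9% at day 4, and the median of all genes moved from -0.04 to -0.02 and from -0.03 to -0.01. An absolute log2 change of at least 0.5 was seen in 830 genes at day 2 (189 up, 641 down) and in 381 at day 4 (120 up, 261 down).

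Of the 2209 genes that passed at both days, 1461 had the same sign and 748 had opposite signs. The same-sign genes were 24.2% of those that passed at day 2 and 33.7% of those that passed at day 4. Over all tested genes 2.49% rose at both days, 6.49% fell at both, 2.77% rose at day 2 and fell at day 4, and 1.82% fell at day 2 and rose at day 4. Day 2 alone held 1051 rises (6.46% of tested genes) and 1229 falls (7.55%), and day 4 alone held 537 rises (3.3%) and 691 falls (4.25%). The difference between no Dex and KO changed from day 2 to day 4 in 4848 genes, or 29.8% of those tested. A further 1538 genes passed at day 2 only and 902 at day 4 only without passing the test between the days, and are not assigned to a day. Across all tested genes the correlation of the day 2 and day 4 differences was r = 0.16, which describes genes within these libraries and carries no test.

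**Figure D1:**
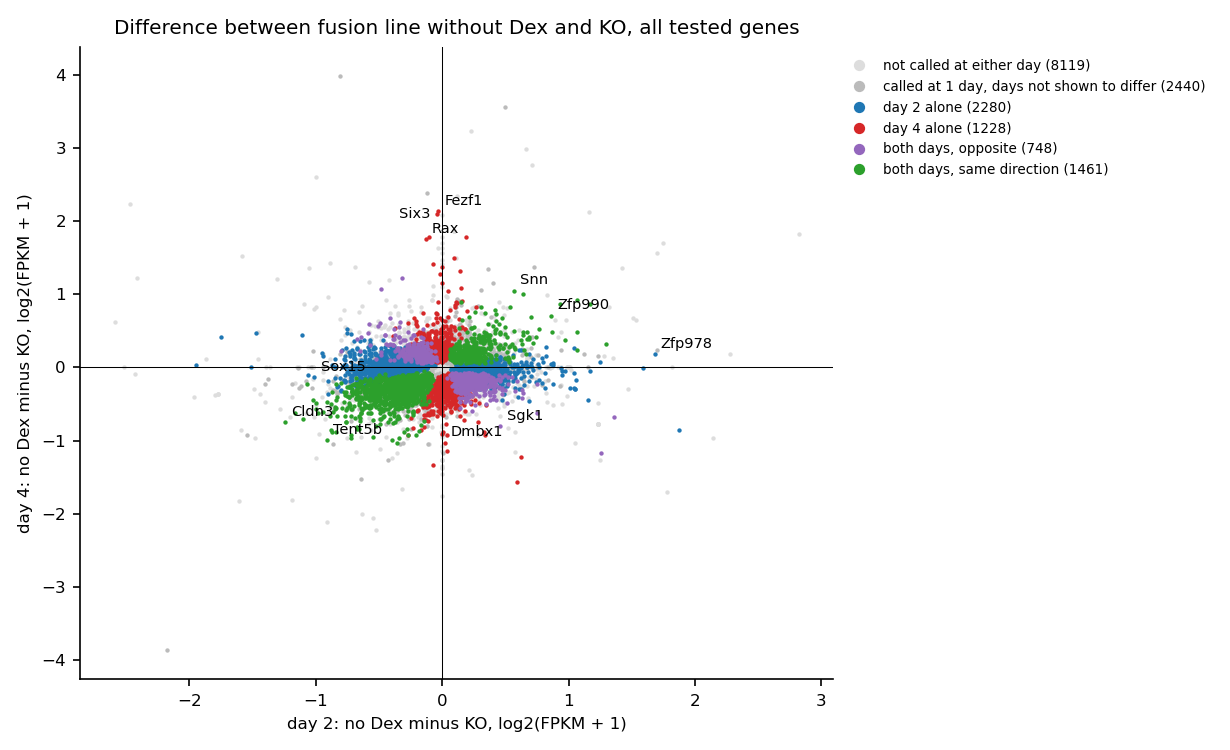
Difference between no Dex and KO at day 2 (horizontal axis) and day 4 (vertical axis) on the log2(FPKM + 1) scale, 1 point for each of the 16276 tested genes, coloured by the days at which it passed. The 1461 genes with the same direction at both days lie in the lower left and upper right, Six3 and Fezf1 stand near 0 on the day 2 axis and above 2 on the day 4 axis, and Zfp978 stands at 1.68 on the day 2 axis.

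Of the 8 shared rises named by the rule, 3 were zinc finger genes of a single stretch of chromosome 4. Zfp genes of this type join a KRAB repressor domain to an array of zinc fingers, and many are known to recruit a silencing complex to transposable elements. By the naming rule, which ranks genes that passed at both days by the smaller of their 2 changes and requires that the duplicates of the lines do not overlap, Zfp990 (chr4:145510759-145539188) came first. It stood at 19.2 and 19.2 FPKM in KO and 35.9 and 35.8 without Dex at day 2, and at 8.91 and 9.42 in KO and 15.4 and 15.9 without Dex at day 4. The level was lower at day 4 than at day 2 in both lines, with no Dex above KO each time. Its change was 0.86 ± 0.06 (SE), adjusted p = 2.87e-09 at day 2 and 0.71 ± 0.06 (SE), adjusted p = 4.98e-08 at day 4, and the days did not differ by the interaction test (adjusted p = 0.181).

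Zfp991 and Zfp985 lie in the same stretch and were also named by the rule. Zfp991 (chr4:147132038-147180579) rose from 2.51 and 2.6 to 5.43 and 5.52 FPKM at day 2 and from 2.12 and 1.92 to 3.37 and 3.12 at day 4. Zfp985 (chr4:147553277-147585198) rose from 8.34 and 9.1 to 13.5 and 14.7 FPKM at day 2 and from 1.51 and 1.56 to 2.61 and 2.45 at day 4. Both no Dex libraries exceeded both KO libraries in all 4 comparisons, which the naming rule required. Among all genes that passed, the libraries of the lines did not overlap in 6017 of 6027 at day 2 and 4336 of 4339 at day 4. The changes of Zfp991 were 0.87 and 0.49, and those of Zfp985 0.64 and 0.48.

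The cluster was grouped after these values were seen: all 17 tested Zfp genes between Zfp990 and Zfp984 (chr4:147753974-147809788). Of the 17, 15 rose and none fell at day 2, and 7 rose and none fell at day 4. Over all tested genes 14.8% and 9.66% rose. The medians of the 17 were 0.76 and 0.18, against -0.04 and -0.03 over all tested genes. The members are not independent of each other, since they resemble each other in sequence and the counting may have split reads among them. Zfp978 had the largest day 2 change of the cluster, from 6.73 and 6.62 FPKM in KO to 24.4 and 23 without Dex. At day 4 the KO libraries had 1.06 and 1.33 and the no Dex libraries 1.28 and 1.69, which overlap, and the gene belongs to day 2 alone (1.68 ± 0.09 (SE), adjusted p = 4.98e-10 at day 2, 0.18 with adjusted p = 0.191 at day 4). Zfp600 followed with 8.53 and 8.04 in KO and 22.2 and 21.5 without Dex at day 2, a change of 1.30 ± 0.10 (SE), adjusted p = 1.41e-08. Only Zfp993 and Zfp986 of the 17 did not pass at day 2, at -0.18 and 0.20.

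Among the 353 tested Zfp genes outside the cluster (each symbol counted once), 110 rose and 42 fell at day 2, while 30 rose and 80 fell at day 4. Their medians were 0.09 and -0.07. By share, 31.2% rose and 11.9% fell at day 2, against 14.8% and 22.2% of all genes. At day 4 8.5% rose and 22.7% fell, against 9.66% and 17%. The direction of the cluster at both days was thus not that of the other Zfp genes at day 4, a description that was not tested as a group. Within the cluster the 12 genes with a longest exon above the median of protein-coding genes (1905 bases) held 12 of the day 2 rises and all 7 day 4 rises, and the 5 with shorter exons held 3 and 0. Of all tested protein-coding genes 21.4% with a longest exon above the median and 11.3% with one below it rose at day 2, and 7.69% and 13.4% at day 4.

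The start regions of these genes resemble each other, and 5 of them are shown to let the shared letters be seen. RefSeq promoter windows (GRCm38.p6) were matched for 11 of the 17 genes, and over the 250 bases before the start their 55 pairs were 38.3% to 93.8% identical (median 66.2%). Among runs of at least 20 letters, the one that most of the 11 windows held had 21 letters, printed in capitals, and lay in 7 windows (Zfp980, Zfp534, Zfp985, Zfp979, Zfp600, Zfp987 and Zfp988). With both strands searched, 1 other of all 27025 promoter windows held the run, that of the zinc finger gene Rex2. Rex2 changed by 1.07 at day 2 (adjusted p = 3.86e-09) and by 0.24 at day 4 (adjusted p = 0.0189). The 17 genes were taken by symbols that start with Zfp, which Rex2 lacks. Its window therefore cannot be counted as one from outside the stretch. Each window below is given 5′ to 3′ on the strand of its gene, at chr4:146156666-146156725 (+ strand) for Zfp600, chr4:146097135-146097194 (+ strand) for Zfp987, chr4:147305464-147305523 (+ strand) for Zfp988, chr4:145670530-145670589 (+ strand) for Zfp980 and chr4:147642616-147642675 (- strand) for Zfp979.
Zfp600: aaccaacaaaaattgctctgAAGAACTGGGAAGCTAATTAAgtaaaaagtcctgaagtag
Zfp987: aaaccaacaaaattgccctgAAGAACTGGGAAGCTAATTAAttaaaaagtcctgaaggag
Zfp988: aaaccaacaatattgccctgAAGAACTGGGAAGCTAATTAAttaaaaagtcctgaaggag
Zfp980: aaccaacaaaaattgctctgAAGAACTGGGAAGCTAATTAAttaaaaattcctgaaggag
Zfp979: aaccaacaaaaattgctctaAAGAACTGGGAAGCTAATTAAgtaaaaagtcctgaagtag
The run describes letters and is not a binding site. Zfp987 changed by 1.04 at day 2, Zfp988 by 0.97, Zfp980 by 0.79 and Zfp979 by 0.44. Zfp985, which also held the run, changed by 0.64. The 4 matched windows without the run (Zfp981, Zfp993, Zfp984 and Zfp982) belong to genes with day 2 changes from -0.18 to 0.63. Zfp978, Zfp991 and Zfp990, which changed by 1.68, 0.87 and 0.86 at day 2, had no matched window. Whether the run goes with the change was not tested.

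**Figure D2:**
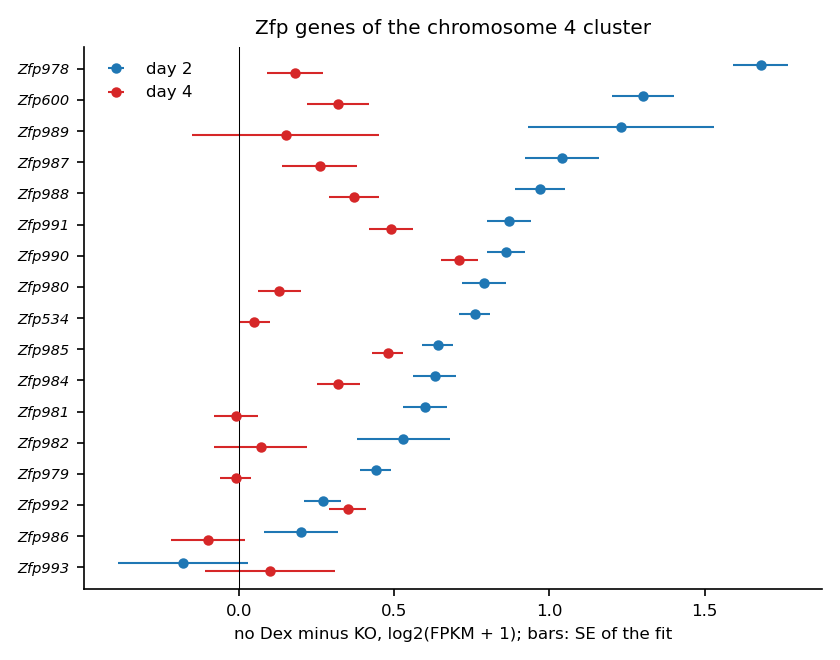
Difference between no Dex and KO on the log2(FPKM + 1) scale (horizontal axis) for the 17 tested Zfp genes of the chromosome 4 stretch (vertical axis), with day 2 in blue, day 4 in red and bars for the SE of the fit. At day 2 the points run from -0.18 (Zfp993) to 1.68 (Zfp978), and at day 4 from -0.10 (Zfp986) to 0.71 (Zfp990).

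Other shared rises had varied roles. Snn (chr16:11060945-11074985) encodes stannin, a small membrane protein, and stood at 5.88 and 5.56 FPKM in KO against 8.81 and 9.14 without Dex at day 2. At day 4 KO had 8.21 and 8.29 and no Dex 18.1 and 18.2, and the rise of 1.05 ± 0.04 (SE), adjusted p = 1.52e-12 exceeded that of day 2 (0.57) by 0.48 (adjusted p = 6.66e-06 for the difference). Snn overlaps Litaf and Txndc11 in the annotation, so its reads are uncertain without strand.

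Mest, an imprinted gene expressed from the paternal copy (chr6:30723547-30748465), rose from 81.2 and 83.6 FPKM in KO to 149 and 133 at day 2. At day 4 it rose from 244 and 258 to 359.69 and 357. The groups did not overlap at either day, as the naming rule required. Its changes were 0.77 ± 0.06 (SE), adjusted p = 1.94e-08 and 0.52 ± 0.06 (SE), adjusted p = 4.38e-06. Mest overlaps Copg2. Dnmt3l, a cofactor of the de novo DNA methyltransferases (chr10:78041947-78063622), had 77.4 and 76.3 FPKM in KO and 124 and 123 without Dex at day 2, and 6.52 and 7.04 and 9.8 and 9.82 at day 4. The changes were 0.67 ± 0.06 (SE), adjusted p = 8.12e-08 and 0.48 ± 0.06 (SE), adjusted p = 9.27e-06, with levels far lower at day 4 than at day 2 in both lines. Dnmt3l overlaps Aire. Ankrd49 rose by 0.47 and 0.68 and the zinc finger gene Zfp354a by 0.46 and 0.47.

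The shared falls included genes of cell adhesion, RNA tailing and signalling. Cldn3, a tight-junction claudin (chr5:134986214-134987472), fell from 22 and 21.6 FPKM in KO to 9.16 and 8.2 at day 2 and from 72.8 and 76.8 to 44.6 and 43.8 at day 4. The KO libraries were the highest at each day with no overlap, as the naming rule required. Its changes were -1.24 ± 0.12 (SE), adjusted p = 1.61e-07 and -0.75 ± 0.12 (SE), adjusted p = 8.91e-05, and the day 4 fall was smaller by 0.49 (adjusted p = 0.0291). Tent5b, a non-canonical poly(A) polymerase (chr4:133480132-133487938), had 6.83 and 6.94 FPKM in KO and 3.06 and 3.35 without Dex at day 2. At day 4 KO had 5.9 and 5.85 and no Dex 2.73 and 2.23, so its level in each line was about the same at the 2 days. The changes were -0.91 ± 0.10 (SE), adjusted p = 1.07e-06 and -0.99 ± 0.10 (SE), adjusted p = 8.21e-07.

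Lingo3, a leucine-rich repeat membrane protein (chr10:80832801-80844039), had 2.56 and 2.73 FPKM in KO and 1.18 and 1.25 without Dex at day 2, and 5.11 and 5.83 and 2.52 and 2.33 at day 4. Atxn1l, an ataxin-1 paralogue (chr8:109726451-109737739), had 23.5 and 21.9 and 13.6 and 13.2 at day 2, and 40.2 and 39.7 and 19.6 and 20.4 at day 4. For both genes the lines did not overlap, as the naming rule required, and the no Dex mean was 0.443 to 0.589 of the KO mean. The small GTPase gene Rab20 fell by -0.76 and -0.74, Fam181b by -0.76 and -0.75, and Inka1, an inhibitor of the kinase PAK4, by -1.10 and -0.70. For Cd164l2 the KO duplicates spread from 3.4 to 6 FPKM at day 2, and its falls of -0.87 and -0.88 passed narrowly (adjusted p = 0.0137 and 0.0179). Cd164l2 overlaps Gpr3 and Inka1 overlaps a predicted gene.

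**Figure D3:**
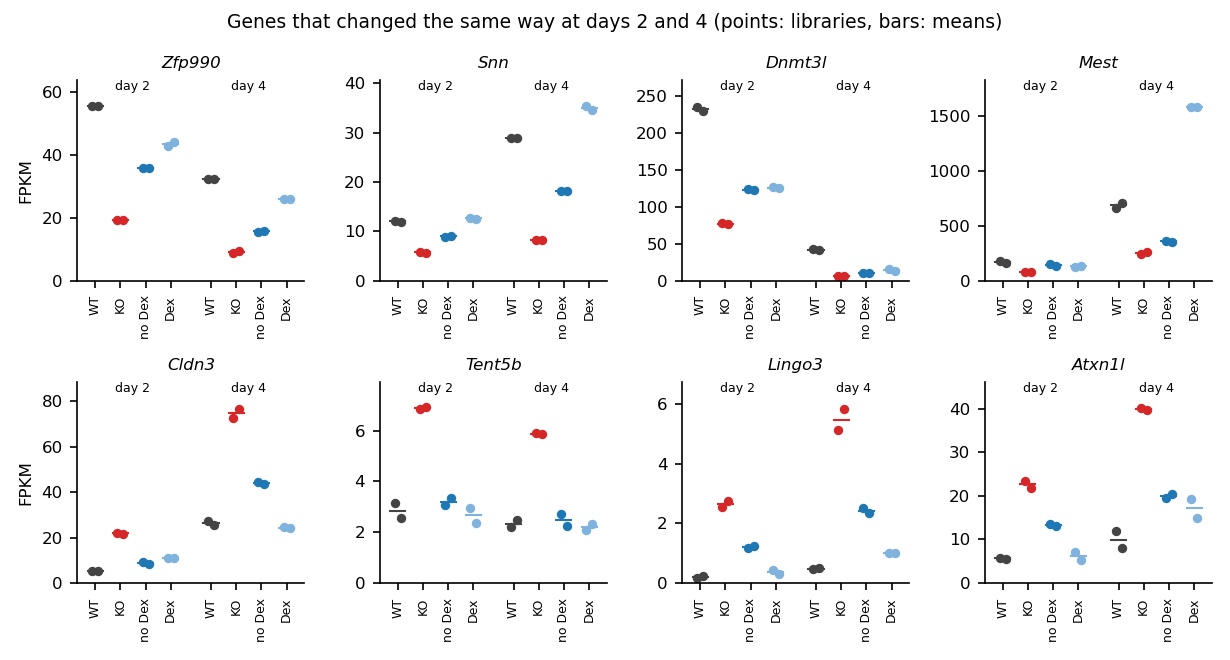
FPKM (vertical axes) of 8 genes that changed the same way at both days, with 1 point per library and a bar for the mean of the 2 libraries, in the parental line (WT), KO, no Dex and Dex at days 2 and 4. In the upper row the no Dex points lie above the KO points at both days, and in the lower row below them, as for Cldn3 with 22 and 21.6 against 9.16 and 8.2 at day 2.

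Most cholesterol synthesis genes fell at each day. The pathway turns acetyl-CoA into cholesterol through mevalonate, farnesyl diphosphate and lanosterol, and its genes are driven by the factor SREBP2, which works with NF-Y at CCAAT boxes. Of the 21 tested genes of the list 17 fell and 0 rose at day 2, and 15 fell and 0 rose at day 4, with 12 falling at both. Their medians were -0.25 and -0.17 against -0.04 and -0.03 over all genes, of which 22.2% and 17% fell. After rescaling, 17 fell at day 2, while 14 fell and 2 rose at day 4. By exon length, 7 of 9 genes with a longest exon below the median and 10 of 12 above it fell at day 2, and 6 of 9 and 9 of 12 at day 4. The shares of all protein-coding genes that fell were 31.4% below the median and 19.5% above it at day 2, and 13.4% and 26% at day 4.

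Among the mevalonate steps, Pmvk, the phosphomevalonate kinase, stood at 132 and 133 FPKM in KO and 85 and 81 without Dex at day 2. At day 4 KO had 160.02 and 161 and no Dex 129.99 and 129. Mvd, the decarboxylase that follows it, had 78.1 and 76.3 against 47.8 and 47.9 at day 2, and 141 and 142 against 129 and 126 at day 4. In both genes the fall was smaller at day 4, from -0.67 to -0.30 for Pmvk and from -0.68 to -0.15 for Mvd (adjusted p = 0.000721 and 1.4e-08 for the differences). Fdps, the farnesyl diphosphate synthase, fell by -0.50 and -0.10.

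In the sterol branch, Lss, which makes lanosterol, fell from 18.9 and 19.98 to 14.7 and 14.1 FPKM at day 2 and from 33.1 and 31.7 to 24.6 and 24.9 at day 4. The changes were -0.41 ± 0.06 (SE), adjusted p = 3.09e-05 and -0.38 ± 0.06 (SE), adjusted p = 0.000118. Msmo1, a sterol demethylase, fell at day 2 (111 and 112 against 75.8 and 69.8 FPKM, -0.61) and did not pass at day 4 (-0.09). Dhcr7, a late sterol reductase, fell at both days (-0.66 and -0.25). The transcript of Srebf2, which encodes SREBP2, did not pass at either day (-0.10 and 0.02).

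A CCAAT run was found on either strand in the 250 bases before the start of 13 of the 14 list genes with a RefSeq window (92.9%), the exception being Dhcr7, against 34.5% of all promoters. The sterol element TCACNCCAC was in 1 of the 14 (7.1%, Hmgcs1), against 1.04% of all. The matches were looked for after the changes were known and are letters, not sites. Windows are shown for 4 genes named above that held CCAAT, so Dhcr7, which fell at both days, is not among them. They are given 5′ to 3′ with CCAAT or its reverse complement in capitals, at chr3:89454377-89454436 (+ strand) for Pmvk, chr8:122443423-122443482 (- strand) for Mvd, chr10:76531515-76531574 (+ strand) for Lss and chr8:64733602-64733661 (- strand) for Msmo1.
Pmvk: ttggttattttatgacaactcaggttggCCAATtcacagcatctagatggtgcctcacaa
Mvd: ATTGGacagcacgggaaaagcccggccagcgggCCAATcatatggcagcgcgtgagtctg
Lss: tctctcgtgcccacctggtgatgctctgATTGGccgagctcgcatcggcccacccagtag
Msmo1: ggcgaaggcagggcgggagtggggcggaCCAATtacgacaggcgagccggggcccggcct

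Epithelial genes were more often lower than higher at each day. Of 14 tested, 9 fell and 1 rose at day 2, and 7 fell and 0 rose at day 4, with medians of -0.34 at each day. Of these 14, 5 fell at both days (6.49% of all genes did). At day 2 64.3% and at day 4 50% fell, against 22.2% and 17% of all genes. Besides Cldn3, the keratin gene Krt19 fell from 12.6 and 13.3 to 6.02 and 5.73 FPKM at day 2 and from 11.8 and 11.9 to 8.53 and 8.36 at day 4. Spint1, a membrane inhibitor of serine proteases, fell by -0.48 and -0.56, and Cldn6 by -0.53 and -0.38. The junction proteins differed in timing. Crb3 and Cldn7 fell at day 2 (-0.80 and -0.70) and did not pass at day 4, whereas Cdh1, the E-cadherin gene, and Epcam did not pass at day 2 (-0.08 and 0.08) and fell at day 4. Cdh1 went from 107 and 106 FPKM in KO to 73.1 and 74.4 without Dex at day 4, and Epcam from 115 and 116 to 91.7 and 89. In 13 of the 14 genes the longest exon was below the median.

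Signalling genes with shared falls were spread over several pathways. In the Notch pathway, ligands on 1 cell activate receptors on its neighbour and induce Hes genes. Of its 14 genes 7 fell and 0 rose at day 2, and 6 fell and 0 rose at day 4. The falls were 50% of the list at day 2 and 42.9% at day 4, against 22.2% and 17% of all genes. The ligand Jag2 fell by -0.46 and -0.51 and the feedback gene Nrarp by -0.61 and -0.35. The ligand Dll3 and the target Hes1 fell at day 2 (-0.60 and -0.46) without passing at day 4, and the receptor Notch2 fell at day 4 (6.54 and 6.62 against 4.49 and 4.43 FPKM, -0.47).

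In the Wnt list 12 of 21 genes fell and 2 rose at day 2, and 8 fell and 4 rose at day 4. Falls made up 57.1% and 38.1% of the list (22.2% and 17% of all genes), and rises 9.52% and 19% (14.8% and 9.66%). Of the ligands Wnt4 went from 0.96 and 0.97 to 0.36 and 0.35 FPKM at day 2 and Wnt6 from 2.89 and 2.65 to 1.27 and 1.15. Wnt6 did not pass at day 4, where it was below 1 FPKM in all 4 libraries. The ligand Wnt8b fell at day 2 (-0.33) and rose at day 4 from 0.46 and 0.39 to 1.2 and 1.18 FPKM (0.62 ± 0.07 (SE), adjusted p = 2.6e-06). The receptor gene Fzd10 fell by -0.21 and -0.93, while Fzd5, a receptor of the early eye field, rose by 0.13 and 0.36. Of the target genes, Axin2 fell by -0.27 and -0.40, and Sp5 stood at 14.6 and 15.3 FPKM in KO and 7.58 and 6.46 without Dex at day 4 (-0.99 ± 0.09 (SE), adjusted p = 2.3e-07).

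Of 14 genes of the BMP list, 6 fell and 1 rose at day 2, and 5 fell and 3 rose at day 4. By share, 42.9% fell and 7.14% rose at day 2, and 35.7% and 21.4% at day 4. Over all genes it was 22.2% and 14.8%, then 17% and 9.66%. The antagonists Fst and Chrd fell at both days (-0.60 and -0.42 for Fst, -0.36 and -0.33 for Chrd), and the ligand Bmp7 fell by -0.51 and -0.30. Id3, a target that BMP induces, rose by 0.21 and 0.29. Of 15 targets of p53, 9 fell and 2 rose at day 2, and 9 fell and 0 rose at day 4. That is 60% down at each day, against 22.2% and 17% of all genes. The 13.3% up at day 2 is near the 14.8% of all genes. Perp, a desmosome-linked target, had 16.4 and 15.6 FPKM in KO and 10.1 and 9.64 without Dex at day 2, and 24.4 and 25.4 and 15 and 15.2 at day 4, and the nuclease gene Aen fell by -0.28 and -0.28. Mdm2, which encodes the ligase that restrains p53, fell at day 4 alone (-0.46).

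The rises of day 2 alone named by the rule were Zfp978, Klhdc1, Cphx1, Adnp, Zfp987 and Zfp936, in that order. Cphx1, a homeobox gene of oocytes and early embryos, had 2.15 and 0.91 FPKM in KO and 4.88 and 4.81 without Dex at day 2, and 0.23 FPKM or less in all 4 libraries at day 4. Its day 2 change was 1.25 ± 0.22 (SE), adjusted p = 0.000171, and it fell short of the threshold with a pseudocount of 0.1. Adnp, a homeobox factor of chromatin complexes, had 2.85 and 2.77 FPKM in KO and 6.85 and 7.02 without Dex at day 2. At day 4 the lines stood at 8.12 and 7.5 and 6.9 and 6.74 with the order turned and no call (-0.17, adjusted p = 0.284). The zinc finger genes Zfp987 and Zfp936 rose by 1.04 and 0.97 at day 2. Klhdc1 changed by 1.59, but its no Dex duplicates stood apart from each other at 4.88 and 1.91 FPKM against 0.39 and 0.35 in KO.

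The falls of day 2 alone included Sox15, an SRY-related factor of embryonic stem cells, at 16.4 and 17.2 FPKM in KO and 7.35 and 8.3 without Dex. At day 4 the libraries were at 3.14 and 3.03 and 2.85 and 2.62, and the difference between the days was 0.88 (adjusted p = 0.00387). Sncb, which encodes beta-synuclein, had 12.3 and 10.1 FPKM in KO and 5.49 and 5.24 without Dex at day 2 and 26.2 and 26.7 and 29 and 30 at day 4, where it did not pass. Dnm1, the neuronal dynamin, fell by -0.87 at day 2 and stood at 0.03 at day 4. The vesicle gene Sytl1 fell by -0.90 and the calcium sensor gene Cracr2b by -0.90. Rpgrip1, a photoreceptor cilium gene, was named at -1.51, but its no Dex duplicates were at 0.73 and 3.88 FPKM, and it did not pass when only the 8 libraries were fitted. Sox15 overlaps Mpdu1, Rpgrip1 overlaps Supt16 and Dnm1 overlaps Ciz1.

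Genes of formative pluripotency, the state between naive stem cells and lineage commitment, rose more than they fell at day 2. Of 11 tested, 6 rose and 3 fell at day 2, and 2 rose and 1 fell at day 4. The 27.3% down at day 2 is near the 22.2% of all genes, and the 54.5% of rises stands beside 14.8%. The de novo DNA methyltransferase genes were the largest of these rises. Dnmt3b had 204 and 201 FPKM in KO and 321 and 321 without Dex at day 2, a change of 0.66 ± 0.03 (SE), adjusted p = 4.92e-12, and 131 and 131 and 149.73 and 149 at day 4 (0.19 ± 0.03 (SE), adjusted p = 1.6e-05). Dnmt3a rose at day 2 from 61.3 and 61.1 to 82.9 and 81.7 FPKM and did not pass at day 4 (-0.04). With Dnmt3l, all 3 members of the de novo methylation machinery were thus higher without Dex at day 2. The formative factors Fgf5, Pou3f1 and Sox3 fell at day 2 (-0.29, -0.23 and -0.36).

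Of 17 pluripotency genes, 3 rose and 5 fell at day 2, and 4 rose and 6 fell at day 4. The day 2 shares, 17.6% up and 29.4% down, lie near the 14.8% and 22.2% of all genes, and at day 4 they were 23.5% and 35.3% against 9.66% and 17%. Pou5f1, which encodes OCT4, fell at day 2 (869 and 886 against 779 and 765 FPKM, -0.18) and did not pass at day 4 (0.11). Nanog did not pass at day 2 (-0.07) and fell at day 4 from 22.1 and 22.4 to 15.7 and 17 FPKM (-0.42). Zfp42, the naive marker also called Rex1, rose at day 2 (0.34) and fell at day 4 (-0.18), when both lines had lost most of its transcript. The naive factor Klf2 fell at day 2 (112 and 109.74 against 79 and 83.3 FPKM, -0.44).

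Nodal, the TGF-beta family ligand of early patterning, fell from 13.9 and 13.3 to 8.95 and 9.38 FPKM at day 2, and its feedback inhibitor Lefty1 from 13.6 and 14.5 to 7.61 and 9.45. At day 4 both were at 1.45 FPKM or less in all 4 libraries and did not pass. Of the 8 tested genes of the Nodal list 4 fell and 0 rose at day 2, and 2 rose and 2 fell at day 4. The falls were 50% and 25%, against 22.2% and 17% of all genes, and the day 4 rises 25%, against 9.66%. Fgf8, a ligand of the anterior neural ridge and of mesendoderm, fell from 2.5 and 2.83 to 1.11 and 1.22 FPKM at day 2 and did not pass at day 4 (0.26), a difference between the days of 1.02 (adjusted p = 0.00177). Of 14 FGF and ERK feedback genes, 6 fell and 1 rose at day 2, and 7 fell and 1 rose at day 4. That is 42.9% and 50% down, against 22.2% and 17% of all genes. At each day 7.14% rose, against 14.8% and 9.66%. The feedback phosphatase gene Dusp6 fell at day 4 (-0.33) and not at day 2 (0.01).

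Of 20 DNA replication genes, 11 rose and 3 fell at day 2, and 4 rose and 2 fell at day 4, with medians of 0.10 and 0.05. Rises were 55% and 20% of the list, against 14.8% and 9.66% of all genes. Falls were 15% and 10%, against 22.2% and 17%. The helicase subunit gene Mcm2 rose from 113 and 111 to 131 and 131 FPKM at day 2, and Pola1, the catalytic subunit of polymerase alpha, from 5.65 and 6.08 to 8.33 and 7.93. Fen1, the flap nuclease, fell at both days (-0.26 and -0.43). Of 24 imprinted genes, 10 rose and 6 fell at day 2, and 7 rose and 4 fell at day 4. The falls, 25% and 16.7%, are near the 22.2% and 17% of all genes. The rises, 41.7% and 29.2%, stand beside 14.8% and 9.66%. The growth-restraining Phlda2 fell from 37.6 and 37.4 to 20.1 and 20.5 FPKM at day 2 and by -0.61 at day 4. Nnat rose by 0.33 and 0.41, Sfmbt2 rose at day 2 alone (0.62), and Dlk1 fell at day 2 alone (9.34 and 8.63 against 4.73 and 5.5 FPKM, -0.71).

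At day 4 alone the rises were led by transcription factors of the anterior neural plate and eye field. These homeobox and zinc finger genes set the identity of the forebrain and of the optic vesicle within it, and Rax and Six3 are required for an eye to form. Six3 (chr17:85613608-85629302) was at 0.1 and 0.21 FPKM in KO and 0.19 and 0.06 without Dex at day 2. At day 4 it was at 7.08 and 7.18 in KO and 34.5 and 33.1 without Dex, so the no Dex libraries held 4.74 times the KO mean and the groups lay far apart. The change at day 4 was 2.10 ± 0.07 (SE), adjusted p = 2.51e-13, and it departed from that of day 2 by 2.14 (adjusted p = 8.77e-11). Six3 overlaps its antisense gene Six3os1.

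Rax was at 1.2 and 1.21 FPKM in KO and 6.51 and 6.43 without Dex at day 4 (1.76 ± 0.06 (SE), adjusted p = 7.95e-13), and at 0.49 FPKM or less in all 4 libraries at day 2. The reporter row eGFP followed it, with 0.44 and 0.33 FPKM in KO and 2.77 and 2.38 without Dex at day 4 (1.37 ± 0.20 (SE), adjusted p = 3.84e-05) and no more than 0.34 at day 2. Both no Dex libraries exceeded both KO libraries for each, as the naming rule required. Hesx1, a repressor of the anterior neural plate and pituitary, rose from 35.1 and 35.6 to 76.1 and 72.9 FPKM (1.05 ± 0.13 (SE), adjusted p = 5.18e-06). Lhx2, a LIM-homeobox factor of the optic vesicle, rose at day 4 from 4.52 and 4.67 to 10.7 and 10.8 FPKM (1.07) after a fall at day 2 (-0.48), where its KO duplicates were at 0.8 and 1.84 FPKM.

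Fezf1 (chr6:23245044-23248362), a forebrain zinc finger repressor, had the largest named rise. It was at 1.92 and 2 FPKM in KO and 12.1 and 12 without Dex at day 4, and at 0.12 FPKM or less in all 4 libraries at day 2. Fezf2, its paralogue, was at 1.93 and 2.02 and 9 and 9.6 at day 4. Lhx5, a LIM-homeobox factor of the rostral forebrain (chr5:120431699-120441223), was at 11.4 and 11.7 and 35.6 and 33.7. The no Dex libraries were 6.13, 4.71 and 2.99 times the KO mean for Fezf1, Fezf2 and Lhx5, and none of the 3 passed at day 2.

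Not all genes of these groups moved. Of the 11 tested anterior forebrain genes, 5 rose and 1 fell at day 4 and none passed at day 2. Over all genes 14.8% rose and 22.2% fell at day 2. The 11 genes together summed to only 3.31 to 4.07 FPKM in KO and 3.56 to 3.72 without Dex at that day. A difference between the lines could hardly show at such levels, so the lack of calls at day 2 is not a result about these genes. At day 4 45.5% rose and 9.09% fell, against 9.66% and 17% of all genes. Sp8 was the fall (-0.38), and Emx2 rose with no Dex duplicates far apart (1.75 and 2.84 FPKM in KO and 6.16 and 3.07 without Dex). Of 13 eye-field genes, 4 rose (Rax, Six3, Lhx2 and Hesx1) and 2 fell (Mab21l1 and Mab21l2) at day 4. The 15.4% down is near the 17% of all genes, and the 30.8% up stands beside 9.66%. Mab21l2 fell from 37.1 and 37.9 to 22.4 and 22.8 FPKM (-0.71 ± 0.05 (SE), adjusted p = 1.13e-08). Pax6 stood at 8.99 and 8.84 FPKM in KO and 9.42 and 9.96 without Dex at day 4 and did not pass (0.11, adjusted p = 0.665), nor did Otx2 (0.01) or Six6, which was at 0.09 FPKM or less in all 4 libraries.

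Early neuron genes showed 5 rises and 1 fall of 13 at day 4, against 0 and 1 at day 2. The day 4 rises were 38.5% of the list, against 9.66% of all genes. At each day 7.69% fell, against 22.2% and 17% of all genes. The proneural factor Neurog2 rose from 1.07 and 0.91 to 3.87 and 3.78 FPKM (1.28 ± 0.06 (SE), adjusted p = 5.01e-11), and the tubulin gene Tubb3 from 130.02 and 131 to 169.7 and 173 (0.39 ± 0.03 (SE), adjusted p = 1.19e-08). The RNA-binding protein gene Elavl3 rose by 0.45. Map2, a dendrite protein gene, fell by -0.44, and Dcx and Neurog1 were at 0.17 FPKM or less in all 8 libraries.

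Midbrain and hindbrain genes were among the falls of day 4. Of 17 tested, 9 fell and 0 rose at day 4 (52.9% down, against 17% of all genes), with 4 down and 1 up at day 2. The 23.5% down at day 2 is near the 22.2% of all genes. Dmbx1, a homeobox factor of the diencephalon and midbrain (chr4:115915119-115939926), was at 8.4 and 8.55 FPKM in KO and 3.79 and 3.49 without Dex (-1.03 ± 0.05 (SE), adjusted p = 1.3e-10) and at 0.19 or less in all 4 libraries at day 2. Irx5, an Iroquois factor, was at 53.8 and 53.5 and 26.4 and 25.1 (-1.03 ± 0.09 (SE), adjusted p = 1.74e-07). Irx3 went from 95.1 and 96 to 59.5 and 57.5 FPKM at day 4, Irx2 fell by -0.67, Irx1 by -0.35 and En1, the midbrain-hindbrain factor, by -0.53. Irx2, Irx3, Irx5 and En1 had also fallen at day 2, from lower levels. Pax2 and Lmx1b, which mark the same border, did not pass at day 4 (-0.03 and -0.09).

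Among neural progenitor genes 5 of 13 fell and 1 rose at day 4, and 3 fell and 0 rose at day 2. At day 4 38.5% fell, against 17% of all genes. The 23.1% that fell at day 2 is near the 22.2% of all genes. Sox21, a repressor of the SoxB2 group (chr14:118233232-118237030), was at 16.8 and 17.6 FPKM in KO and 8.65 and 8.63 without Dex at day 4 and at 1.17 and 1.27 and 1.22 and 1.22 at day 2. The groups did not overlap at day 4, as the naming rule required, and the fall was -0.91 ± 0.03 (SE), adjusted p = 8.29e-13. Fabp7, the brain lipid-binding protein, fell from 53.6 and 48.8 to 25.8 and 25.8 FPKM (-0.96 ± 0.11 (SE), adjusted p = 4.38e-06), and Sox1 by -0.24. Has2, which makes hyaluronan (chr15:56665627-56694539), was at 6.76 and 6.52 in KO and 3.2 and 3.3 without Dex (-0.85 ± 0.06 (SE), adjusted p = 2.96e-08). The zinc finger genes Zfp874a and Zfp169 and the GTPase regulator Rabgap1l fell by -0.92, -0.92 and -0.82 at day 4. Of 12 neural border and crest genes 5 fell and 0 rose, with Tfap2a at -0.56 and Sox9 at -0.34. Of 9 Hedgehog genes 4 fell and 0 rose, with the effectors Gli1 and Gli2 at -0.46 and -0.43. The falls were 41.7% and 44.4% of these lists at day 4, against 17% of all genes. Has2 overlaps its antisense gene.

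**Figure D4:**
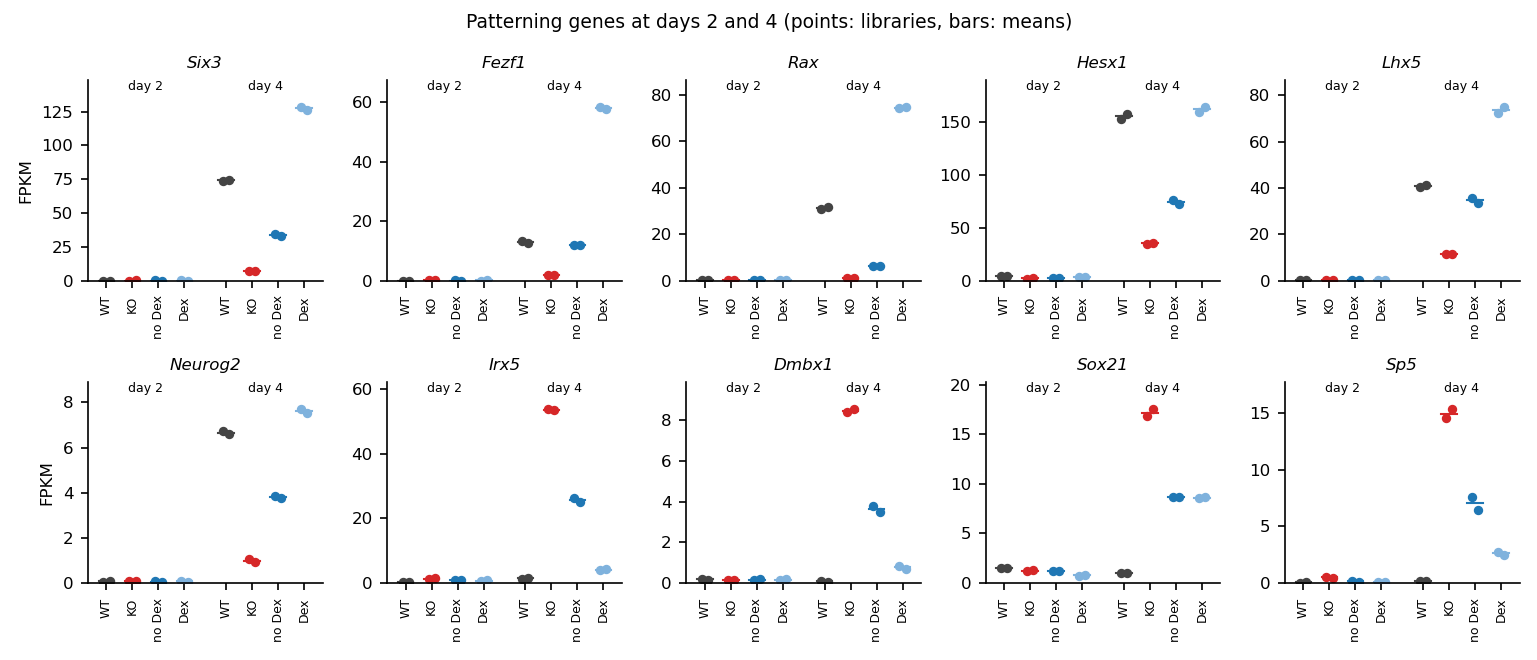
FPKM (vertical axes) of 10 patterning genes with 1 point per library and a bar for the mean of the 2 libraries, in the parental line (WT), KO, no Dex and Dex at days 2 and 4. At day 4 the no Dex points of Six3, Fezf1, Rax, Hesx1, Lhx5 and Neurog2 lie above those of KO, and those of Irx5, Dmbx1, Sox21 and Sp5 lie below, for example 26.4 and 25.1 against 53.8 and 53.5 for Irx5.

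Of 8 writer complex genes 4 rose and 1 fell at day 2, and 2 rose and 4 fell at day 4. Mettl3 is counted among the rises of each day, although the fusion overexpresses it by design. By share, 50% rose and 12.5% fell at day 2, against 14.8% and 22.2% of all genes. At day 4 25% rose and 50% fell, against 9.66% and 17%. Of 10 m6A readers and erasers 3 rose and 2 fell at day 2, and 1 rose and 4 fell at day 4. Of these, the 20% down at day 2 and the 10% up at day 4 are near the 22.2% and 9.66% of all genes, and the 30% up at day 2 and 40% down at day 4 stand beside 14.8% and 17%. Rbm15, which guides the writer complex to RNA, was at 20.1 and 20.1 FPKM in KO and 11.5 and 11.9 without Dex at day 4 (-0.73 ± 0.05 (SE), adjusted p = 2.91e-09), with a smaller fall at day 2 (-0.14). Its paralogue Rbm15b fell at day 4 (-0.30), and Wtap, the adaptor subunit, rose at day 2 (0.11) and fell at day 4 (-0.19). Mettl14 rose at day 2 (0.13) and did not pass at day 4 (-0.03), and Zc3h13 rose at both days (0.12 and 0.14). Of the readers, Ythdf2, which leads methylated RNA to decay, was at 48.1 and 47.7 FPKM in KO and 32.2 and 33.7 without Dex at day 4 (-0.53 ± 0.04 (SE), adjusted p = 2.09e-08) and did not pass at day 2 (-0.03). Ythdf1 fell at both days (-0.15 and -0.38), and Ythdf3 rose at day 2 (0.18) and fell at day 4 (-0.30). The eraser genes Fto and Alkbh5 did not pass at either day.

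Most glycolysis and hypoxia genes fell at day 2 and more rose than fell at day 4. These genes encode glucose uptake and breakdown and the response that the factor HIF drives when oxygen is short. Of 24 tested, 17 fell and 1 rose at day 2, and 4 fell and 13 rose at day 4, with medians of -0.18 and 0.14. At day 2 70.8% fell, against 22.2% of all genes. At day 4 54.2% rose, against 9.66%, and the 16.7% that fell is near the 17% of all genes. A call in opposite directions at the 2 days, down and then up, was made for 8 of the 24, beside 1.82% of all genes. Of 13 genes with a longest exon below the median 10 fell at day 2 and 9 rose at day 4, and of 11 above it 7 fell and 4 rose. Of all protein-coding genes 31.4% below the median and 19.5% above it fell at day 2, and 13.4% and 7.69% rose at day 4.

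Among the enzymes, Pfkl, a phosphofructokinase, was at 299 and 296 FPKM in KO and 248 and 249.51 without Dex at day 2. At day 4 it was at 303 and 304 in KO and 351 and 356 without Dex. The order of the lines turned with no overlap at either day, from -0.26 ± 0.02 (SE), adjusted p = 2.16e-07 to 0.22 ± 0.02 (SE), adjusted p = 2.74e-06. Tpi1, triose phosphate isomerase, went from -0.26 to 0.14 and Aldoa, an aldolase, from -0.14 to 0.20. Ldha, lactate dehydrogenase, did not pass at day 2 (0.00) and rose at day 4 from 1788 and 1808 to 2277 and 2274 FPKM (0.34 ± 0.01 (SE), adjusted p = 4.44e-12). Gapdh rose at day 4 by 0.24 without passing at day 2 (-0.02), and Eno1 rose at both days (0.15 and 0.23).

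Of the HIF targets, Egln3, an oxygen-sensing prolyl hydroxylase, was at 30.9 and 29.7 FPKM in KO and 18.8 and 19 without Dex at day 2, and at 20.6 and 19.8 and 23.9 and 23.4 at day 4. Its change turned from -0.65 ± 0.07 (SE), adjusted p = 5.16e-07 to 0.22 ± 0.07 (SE), adjusted p = 0.0219. Hk2, a hexokinase, fell at day 2 (-0.53) and was at 0.00 at day 4. Vegfa, the vessel growth factor, fell at both days (-0.54 and -0.31), and Pdk1, a brake on pyruvate oxidation, fell at day 4 alone (-0.30). Ddit4, a stress target kept in the glucocorticoid list, fell from 215 and 208 to 134 and 133 FPKM at day 2 and did not pass at day 4 (0.01).

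The core of the HIF response element, ACGTG, was found on either strand in the 250 bases before the start of 10 of the 21 list genes with a RefSeq window (47.6%), against 16.6% of all promoters. The list was chosen to hold genes of the HIF response, so a higher share may follow from that choice. Changed genes were not compared with unchanged ones. The matches were looked for after the changes were known and are letters, not sites. The 4 windows shown are of genes named here, 5′ to 3′ with ACGTG or its reverse complement in capitals, at chr12:54204065-54204124 (- strand) for Egln3, chr6:82774475-82774534 (- strand) for Hk2, chr7:46845742-46845801 (+ strand) for Ldha and chr8:124949291-124949350 (- strand) for Egln1, a hydroxylase gene that fell at day 2 (-0.38). In Ldha 2 of the 3 matches overlap as a palindrome.
Egln3: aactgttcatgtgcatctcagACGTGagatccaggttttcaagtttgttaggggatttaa
Hk2: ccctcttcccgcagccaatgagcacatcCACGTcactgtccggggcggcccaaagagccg
Ldha: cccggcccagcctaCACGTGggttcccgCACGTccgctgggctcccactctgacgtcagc
Egln1: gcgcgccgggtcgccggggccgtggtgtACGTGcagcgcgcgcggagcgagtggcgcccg
Windows of Pfkl, Tpi1, Aldoa and Gapdh, which rose at day 4, held no ACGTG in these letters.

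Most ribosomal protein genes, whose products build the cytosolic ribosome, rose at day 4 by small amounts. Of 85 tested, 26 fell and 5 rose at day 2, and 1 fell and 51 rose at day 4, with medians of -0.05 and 0.11. The share that rose at day 4 was 60%, against 9.66% of all genes. The share that fell at day 2 was 30.6%, near the 31.4% of all protein-coding genes with a longest exon below the median, where most of the list lies. Of the 85, 14 fell at day 2 and rose at day 4, and 30 rose at day 4 alone. Rps2 was at 5767 and 5816 FPKM in KO and 5237 and 5121 without Dex at day 2, and at 5048 and 5121 and 5794 and 5714 at day 4. Rpl22l1, a paralogue of Rpl22, had the largest rise that passed at day 4 (149 and 139 against 203 and 198 FPKM, 0.47 ± 0.05 (SE), adjusted p = 1.13e-06). The single fall at day 4 was Rps4l (-0.34), which had also fallen at day 2 (-0.31). After rescaling the counts were 5 up and 19 down at day 2 and 60 up and 1 down at day 4. Ribosomal protein genes have many processed copies in the genome, so their reads are partly uncertain.

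Genes of the integrated stress response, which the kinase GCN2 and others switch on through the factor ATF4 when amino acids are short, were more often lower at day 2 and more often higher at day 4. Of 16 tested, 8 fell (50%, against 22.2% of all genes) and 1 rose at day 2. At day 4 9 rose (56.2%, against 9.66% of all genes) and 0 fell. Of the 16, 3 fell at day 2 and rose at day 4, 5 fell at day 2 alone and 5 rose at day 4 alone. Atf5, a factor downstream of ATF4, was at 29.9 and 29.3 FPKM in KO and 22.4 and 22.7 without Dex at day 2 and at 26 and 25.6 and 34.8 and 33.2 at day 4. The changes were -0.38 ± 0.04 (SE), adjusted p = 1.4e-06 and 0.39 ± 0.04 (SE), adjusted p = 2.34e-06. Ddit3, which encodes CHOP, went from -0.29 to 0.38. The serine synthesis genes Phgdh and Shmt2 rose at day 4 by 0.33 and 0.34, and Asns, asparagine synthetase, rose at both days (0.25 and 0.31). Chac1, a glutathione-degrading enzyme, rose at day 4 from 14.8 and 14.5 to 18.8 and 19.8 FPKM.

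The C/EBP-ATF element TGATGCAA was found on either strand before the start of 3 of the 15 list genes with a window (20%, Atf3, Chac1 and Nupr1), against 0.818% of all promoters. The list was chosen to hold genes of the ATF4 response, so a higher share may follow from that choice. Changed genes were not compared with unchanged ones, and these matches too are letters, not sites. The windows of Chac1 and of Atf3, which rose at day 4 by 0.37 (2.3 and 1.86 FPKM in KO and 2.42 and 3.64 without Dex), are shown with the match in capitals, at chr2:119351023-119351082 (+ strand) and chr1:191183410-191183469 (- strand).
Chac1: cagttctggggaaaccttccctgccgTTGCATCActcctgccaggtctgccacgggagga
Atf3: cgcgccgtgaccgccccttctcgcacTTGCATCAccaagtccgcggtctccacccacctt

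Single genes with larger opposite changes were named by the rule. Sgk1, a kinase that glucocorticoids and growth factors induce (chr10:21882184-21999903), was at 19 and 19.6 FPKM in KO and 28.4 and 25.6 without Dex at day 2. At day 4 it was at 3.87 and 3.3 in KO and 1.65 and 1.6 without Dex. As the rule required, the lines did not overlap at either day and their order turned. The change went from 0.46 ± 0.11 (SE), adjusted p = 0.00318 to -0.80 ± 0.11 (SE), adjusted p = 2.97e-05. Ier3, an immediate early gene (chr17:35821684-35822923), went the other way, from 42 and 37.9 in KO against 24.8 and 24.7 without Dex at day 2 to 29.8 and 33.2 against 40.9 and 41.9 at day 4. Cox4i2, a subunit of cytochrome oxidase that hypoxia induces, changed by -0.58 and 0.59, and Igsf21, a synaptic adhesion gene, by -0.64 and 0.41.

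Of 13 immediate early genes 7 fell and 0 rose at day 2, and 4 rose and 4 fell at day 4. At day 2 53.8% fell, against 22.2% of all genes. At day 4 30.8% rose and 30.8% fell, against 9.66% and 17%. Junb fell from 20.9 and 19.5 to 10.7 and 11.1 FPKM at day 2 and by -0.45 at day 4, and Fos fell by -0.57 and -0.35, while Egr1 rose at day 4 from 5.02 and 5.38 to 7.44 and 7.83 FPKM without passing at day 2 (-0.05). Of 12 genes of the glucocorticoid response 1 rose and 5 fell at each day. Before rescaling 41.7% fell, against 22.2% and 17% of all genes, and 8.33% rose, against 14.8% and 9.66%. After rescaling 1 rose and 4 fell at day 2 and 2 rose and 2 fell at day 4. The receptor gene Nr3c1 was at 3.1 and 3.25 FPKM in KO and 2.48 and 2.85 without Dex at day 2 and did not pass at either day (-0.19 and -0.22), nor did the receptor target Fkbp5 (0.07 and 0.07). Tsc22d3, which encodes the glucocorticoid-induced leucine zipper, rose at day 4 from 7.29 and 6.43 to 10.5 and 10.2 FPKM (0.53 ± 0.07 (SE), adjusted p = 2.29e-05) although no Dex was given. Of 13 retinoic acid genes 3 rose and 5 fell at day 2, and 3 rose and 1 fell at day 4. By share, 23.1% rose at each day, against 14.8% and 9.66% of all genes. Falls were 38.5% and 7.69%, against 22.2% and 17%. The binding protein gene Crabp1 was at 0.45 at day 4. Crabp1 had fallen at day 2 (-0.37).

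**Figure D5:**
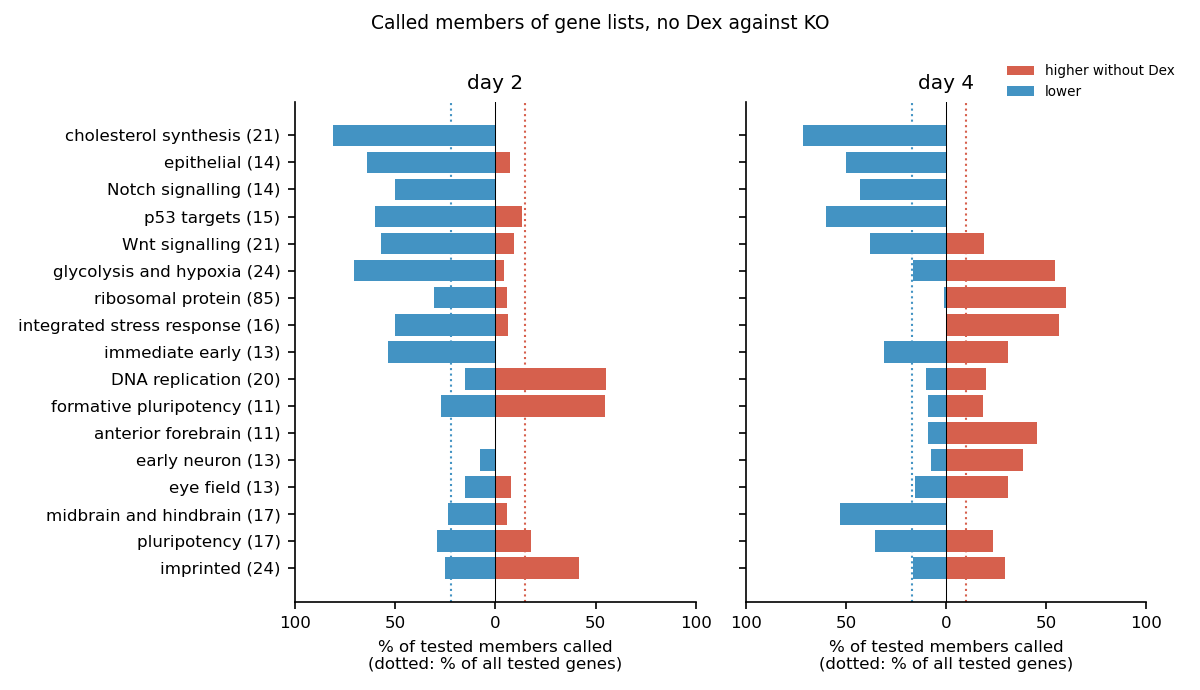
Share of the tested members of 17 gene lists (number tested in brackets) that rose (right, red) or fell (left, blue) without Dex against KO, in % on the horizontal axes, at day 2 (left panel) and day 4 (right panel). Dotted lines mark 14.8% up and 22.2% down over all genes at day 2 and 9.66% up and 17% down at day 4. The cholesterol synthesis, epithelial, Notch and p53 lists had more falls than rises at both days. Glycolysis and hypoxia, ribosomal proteins and the integrated stress response had more falls at day 2 and more rises at day 4.

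Markers of other cell types were looked at over whole lists. Of 17 extraembryonic endoderm genes, 2 rose and 0 fell at day 2 and 2 rose and 2 fell at day 4. The 11.8% that rose at each day is near the 14.8% and 9.66% of all genes. At day 4 11.8% fell, against 17%. The summed level of the 17 genes was 87.3 to 89.4 FPKM in KO and 90.3 to 97.7 without Dex at day 2. At day 4 it was 165 in KO and 155 to 157 without Dex. Whether or not they passed, 16 of the 17 had a positive difference at day 2 and 11 at day 4. Their day 2 median was 0.08, against -0.04 over all genes. The list members Afp and Ttr were at 0.21 FPKM or less in all 8 libraries, which does not speak for the other members. The risen genes at day 2 were the endocytic receptor genes Cubn (0.16 and 0.14 against 0.66 and 0.72 FPKM) and Dab2 (0.37). Of 5 tested mesendoderm genes 3 fell at day 2 and none passed at day 4, and T, Mixl1, Evx1 and Mesp1 were below the level tested. Of 4 tested trophoblast genes 3 fell at day 2 and 1 at day 4, led by Ascl2 (7.67 and 7.61 against 4.77 and 3.88 FPKM), while Cdx2, Elf5, Gata3 and Plac1 were below that level. Falls at day 2 were 60% of the mesendoderm and 75% of the trophoblast genes tested, against 22.2% of all genes.

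The labelled organoids held Otx2 at 200.34 and 203 FPKM and Six3 at 7.08 and 7.18 in KO at day 4, with Pou5f1 still at 204 and 199. The neural progenitor gene Sox1 was at 26.5 and 26.6 FPKM, and the retinal gene Six6 was near 0 as given above. The mitochondrially encoded genes, 15 tested, gave 3 rises and 0 falls at day 2 and 0 rises and 6 falls at day 4. That is 20% up at day 2 and 40% down at day 4, against 14.8% and 17% of all genes.

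Of 12 tested genes of chromosome Y, 8 rose and 0 fell at day 2, when 14.8% of all genes rose and 22.2% fell. The 5 of them that are protein-coding and carry no predicted-gene name rose at day 2, and 2 of these rose at day 4. Ddx3y, a helicase gene, was at 3.86 and 3.82 FPKM in KO and 5.84 and 5.7 without Dex at day 2 (0.48), and Kdm5d, a histone demethylase gene, at 0.26 and 0.23 and 0.57 and 0.65 (0.37). The no Dex libraries lay above the KO libraries for each at day 2. These genes were grouped after their values were seen, and their part in the other changes was not tested.

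The changes also varied with the length of the longest exon, and in opposite ways at the 2 days. Over 5 equal groups of protein-coding genes, from 69 to 854 bases up to 3406 to 40044 bases, the median change went from -0.12 to 0.02 at day 2 and from 0.03 to -0.09 at day 4. At day 2 8.72% of the shortest-exon group rose and 33.8% fell, against 23.5% and 16.4% of the longest-exon group. At day 4 16.7% and 8.5% of the shortest rose and fell, against 6.39% and 28.4% of the longest. Within each library the median of the longest-exon group minus that of the shortest-exon group, each gene taken relative to its mean over the 32 libraries, was -0.17 and -0.18 in KO and -0.04 and -0.05 without Dex at day 2, and 0.21 and 0.21 in KO and 0.08 and 0.08 without Dex at day 4. The no Dex values lay nearer 0 than the KO values at both days, where 0 is set by the mean over the 32 libraries. At day 2 the parental line (-0.16 and -0.15) and the fusion line with Dex (-0.20 and -0.21) lay near KO. At day 4 the parental line was at -0.05 and -0.05, and the fusion line with Dex at 0.13 and 0.15. Most ribosomal protein genes (73 of 85) and epithelial genes (13 of 14) have a longest exon below the median, and most Zfp genes (293 of 370) above it. The 13 epithelial genes below the median gave 1 rise and 8 falls at day 2, where 11.3% of genes below the median rose and 31.4% fell. At day 4 they gave 0 rises and 7 falls, where genes below the median rose and fell at 13.4% each. The part of exon length in the list counts was not tested.

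The levels of the parental line and of the fusion line with Dex, which share no library with the contrasts above, are given for some of the named genes. At day 4 Six3 had a mean of 74 FPKM in the parental line and 127 with Dex, against 7.08 and 7.18 in KO and 34.5 and 33.1 without Dex. Rax had 31.1 and 74.5 FPKM, Fezf1 12.9 and 58.2, and eGFP 31.8 and 66.7. For Dmbx1 the means were 0.08 FPKM in the parental line and 0.77 with Dex, and for Irx5 1.45 and 4.11, each below both no Dex libraries. Sox21 had 1.03 FPKM in the parental line and 8.59 with Dex, the latter level with the no Dex libraries at 8.65 and 8.63.

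At day 2 Zfp990 had means of 55.5 FPKM in the parental line and 43.4 with Dex, above both no Dex libraries. Zfp978 had 21.5 and 11.2, both below the no Dex libraries at 24.4 and 23. Cldn3 had 5.28 and 11 FPKM at day 2, and Pmvk 62.6 and 73.9 against 132 and 133 in KO and 85 and 81 without Dex. Dnmt3b had 425 FPKM in the parental line and 387 with Dex. Not all named genes lay nearer the parental line without Dex than in KO. Adnp had 3.5 and 2.87 FPKM at day 2, against 2.85 and 2.77 in KO and 6.85 and 7.02 without Dex. At day 4 Ier3 had 23.5 and 36, against 29.8 and 33.2 in KO and 40.9 and 41.9 without Dex. Sgk1 had 4.6 and 2.69 at day 4, against 3.87 and 3.3 in KO and 1.65 and 1.6 without Dex. These genes are examples, and no test was made between these groups and the no Dex libraries.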

How the data were processed

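Polyadenylated RNA of 32 libraries (16 groups of 2) was sequenced. The deposited values are gene-level FPKM in 1 table of 55492 rows (21161 at 0 in every library), which the authors made with STAR, Cuffdiff and mm10, per the submitters' processing notes; versions, annotation and strand setting are not given in the sources used here. From 87% to 89.3% of low values in the 8 compared libraries lay within 0.2 of a whole fragment (chance 40%), which gave the depth estimates. Differences were fitted with limma 3.58.1 in R 4.3.3 on log2(FPKM + 1), with a mean-variance trend, over genes of at least 1 FPKM in at least 2 libraries, tested on simulated data first. Coordinates are GENCODE M21 (GRCm38), and promoter sequences are RefSeq (GRCm38.p6).

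Named genes were Mettl3, Nr3c1, eGFP, list members, and the largest changes in each class (8 shared rises, 8 shared falls, 6 rises and 6 falls of each day, 4 opposite) among genes with a mean of at least 2 FPKM in the higher group, duplicates that do not overlap between lines, the same class after rescaling and no predicted-gene name. Some list members are not reported here by name. The members, lists and rule were chosen with earlier results of these data known. Alternatives were another pseudocount, filter, scaling, sample set, variance model, size of change, replicate block and each library left out. Correlations between same-numbered libraries' deviations ran from -0.03 to 0.09, so the replicate numbers do not pair the samples.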

Additional observations from a re-analysis of the deposited data

Results flagged for a closer look

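The difference between no Dex and KO was not the same at both days in 4848 genes, by the interaction test of the limma model. The values below give the log2 difference of day 4 minus that of day 2.

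Among the genes that changed the same way at both days, the departure was 0.48 for Snn, -0.25 for Mest, -0.37 for Zfp991 and 0.49 for Cldn3, so the rise of Snn was larger at day 4 and the other 3 changes were smaller. For the rises of day 2 it was -1.51 for Zfp978, -1.61 for Klhdc1, -1.18 for Cphx1, -1.23 for Adnp, -0.77 for Zfp987 and -1.02 for Zfp936. For the falls of day 2 it was 1.51 for Rpgrip1, 0.88 for Sox15, 1.09 for Sncb, 0.72 for Sytl1, 0.53 for Cracr2b and 0.89 for Dnm1.

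For the rises of day 4 the departure was 2.17 for Fezf1, 2.14 for Six3, 1.89 for Fezf2, 1.89 for Rax, 1.42 for Lhx5 and 1.36 for the eGFP reporter. For the falls of day 4 it was -1.05 for Dmbx1, -1.26 for Zfp874a, -0.96 for Zfp169, -0.91 for Sox21, -0.68 for Has2 and -0.68 for Rabgap1l. For the genes that turned it was -1.26 for Sgk1, 1.17 for Cox4i2, 1.06 for Ier3 and 1.05 for Igsf21. The genes of a day and those that turned were chosen partly by this test, so their values are descriptions.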

How the results depend on the processing

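The counts of genes at day 2 (6027), day 4 (4339), both days in the same direction (1461), the difference between days (4848), day 2 alone (2280) and day 4 alone (1228) stayed within 1.5 times under every alternative but a size requirement. With an absolute log2 change of at least 0.5 they were 830, 381, 74, 910, 302 and 123, since small changes leave by construction. Leaving out each of the 8 libraries in turn gave 4525 to 5987, 2982 to 4306, 1069 to 1217, 3942 to 4202, 1698 to 2202 and 887 to 1228, in that order. With the replicate number as a block the counts were 6002, 4302, 1429, 4834, 2267 and 1226. The numbers do not pair the samples. Of the 1461 genes, 1272 kept their class after rescaling.

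Over 166 genes named in the text and 15 settings, 4765 of 4916 values kept direction and side of the threshold, 125 no longer passed, 26 newly passed and 0 reversed; the cause was not tested. Cd164l2, Zfp354a (day 4), Cox4i2 (day 2), Igsf21 (day 4), Cphx1 and Rpgrip1 were among those that no longer passed under at least 1 setting. With 2 libraries per group, differences near the median SE of 0.0758 are not resolved.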
